A study of Homo sapiens with 12 samples.

Results

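The genes described here are 10 genes that human genetics ties to the risk of Alzheimer's disease and whose products act in endocytosis, membrane sorting and signalling: BIN1, PICALM, CD2AP, SORL1, RIN3, INPP5D, PTK2B, FERMT2, EPHA1 and ABCA7. They were taken by name from the deposited table of counts, which holds 59653 gene symbols, and all 10 had a row. The table comes from RNA sequencing of total RNA from neurons made from induced pluripotent stem cells of IMR-90, a fetal lung fibroblast line; the sample titles carry the letters NPC, which the labels do not explain. One group of 6 libraries (siNC) had received a negative control siRNA and the other group of 6 (siZCC) an siRNA against ZCCHC17, a zinc finger protein that binds RNA; the study's title links it to RNA splicing in neurons. All 12 libraries come from this 1 line, and nothing in the labels says whether replicates were separate cultures, so p-values measure the spread between these libraries, which may be technical.

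In clathrin-mediated endocytosis, adaptor proteins recruit clathrin to phosphoinositides in the plasma membrane, curvature-sensing proteins shape the bud, and Rab5 and its activators carry the vesicle to the early endosome. From there the retromer and sorting receptors such as SORL1 return cargo, including the amyloid precursor protein, to the Golgi or the cell surface. The signalling members sit at the membrane: INPP5D removes a phosphate from a phosphoinositide lipid, PTK2B is a calcium-responsive tyrosine kinase, FERMT2 activates integrins and EPHA1 is an ephrin receptor. In brain tissue INPP5D and RIN3 are best known from microglia, BIN1 from neurons and oligodendrocytes, and FERMT2 from astrocytes.

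The siNC libraries held 90755953 to 120023356 counts each and the siZCC libraries 76115083 to 105389055. ZCCHC17 itself stood at 54.0 to 61.0 CPM (counts-per-million, scaled for library size) with the control siRNA and at 9.37 to 10.6 with the siRNA against it (log2 fold change -2.51, SE 0.0402; edgeR adjusted p 3.52e-17; p-values of this model are adjusted for the false discovery rate over all genes tested). Neuron markers were present, with MAP2 at 1027 ± 104 CPM and DCX at 649 ± 41.8 CPM in siNC (SD, n = 6). RBFOX3, a marker of mature neurons, was at 1.27 ± 0.148 CPM, the lowest of 13 neuron markers read. The next lowest was TUBB3 at 14.2 ± 0.629 CPM, while NEFL stood at 257 ± 8.01 and SYT1 at 194 ± 11.7 CPM. Progenitor and astroglial markers were also high, with SOX2 at 621 ± 20.6 CPM and GFAP at 616 ± 82.0 CPM in siNC (SD, n = 6), so transcripts typical of other neural cell types stood beside the neuronal ones. The libraries also fell on 2 sides of a gap in IL1B, the gene of an inflammatory cytokine, with 449 to 1512 counts in 6 libraries (siNC replicates 2, 3 and 6, siZCC replicates 1, 4 and 5) and 2 to 12 counts in the other 6. Both sides hold 3 libraries of each group.

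Of the 10 genes, 9 were expressed highly enough to be tested and 5 passed the threshold of 0.05 on the adjusted p. INPP5D, SORL1 and PTK2B rose after knockdown of ZCCHC17, and PICALM and FERMT2 fell. Over all 24671 genes tested, 22.2% differed, 11.4% being higher and 10.8% lower. No overlap between the groups was seen in 4 of the 9 genes (INPP5D, SORL1, PTK2B and FERMT2), against 9.74% of all genes tested. The median log2 fold change was 0.03 over the 9 genes and -0.00164 over all genes tested, and the median absolute value was 0.19 against 0.11. The median standard error was also smaller over the 9 genes (0.0439 against 0.0707), so that a given fold change is more readily called. CD2AP (0.09) and RIN3 (0.0793) were exceptions, with standard errors above the median of all genes tested. In RNA from whole cultures, fewer cells of a type and less RNA per cell cannot be told apart.

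**Figure D1:**
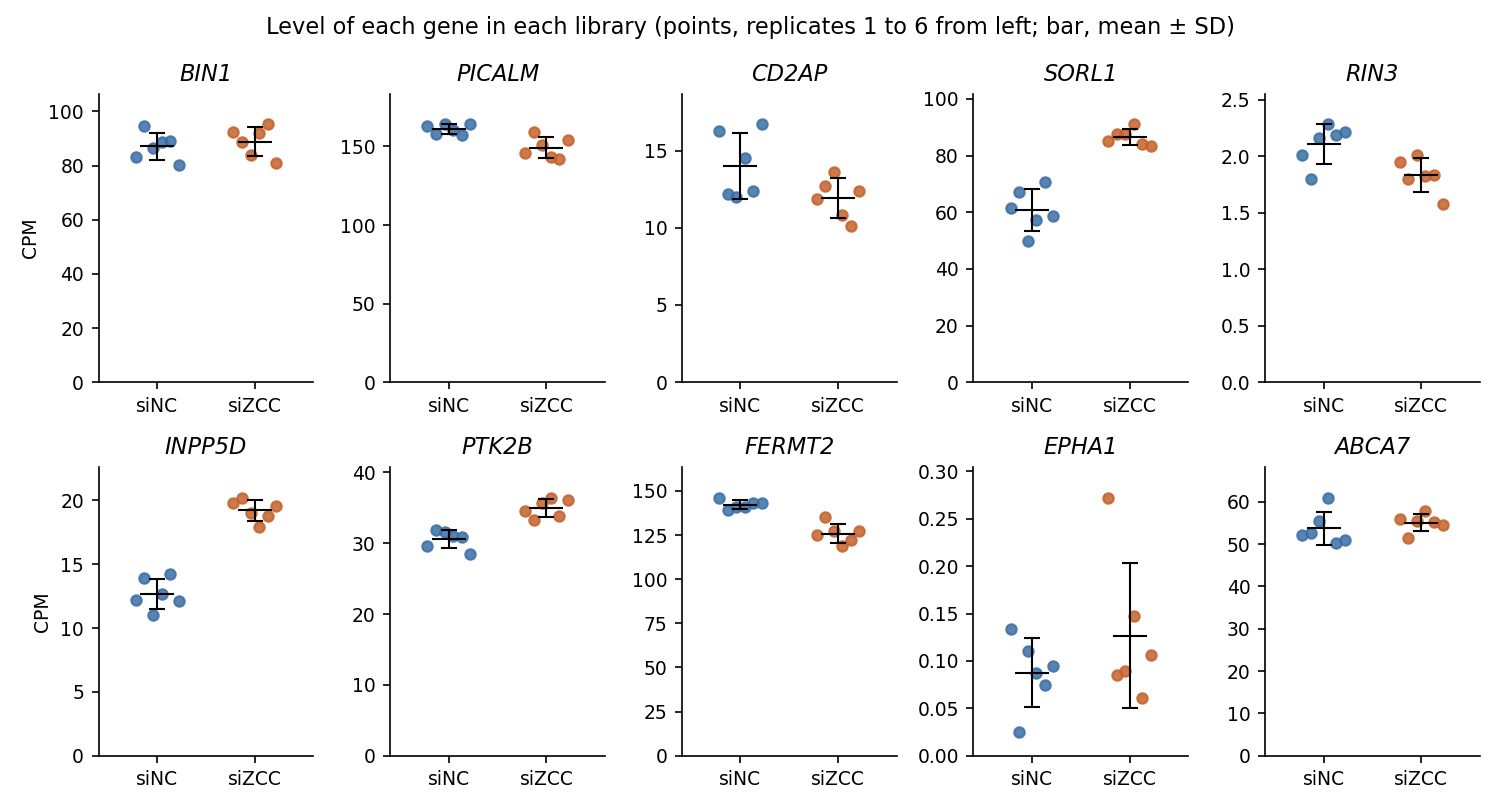
CPM (y axis, from 0) of each of the 10 genes in the 6 siNC (blue) and 6 siZCC (orange) libraries, 1 point per library, with the mean ± SD in black. The siZCC points of INPP5D, SORL1 and PTK2B lie above every siNC point and those of FERMT2 below, while the groups overlap in the other 6 genes.

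Levels were set per kilobase of exon, counting the exons of all annotated transcripts of a gene together. The transcripts present here may be shorter, by a different factor for each gene, so the order between genes is approximate. On this scale PICALM was the most abundant of the 10 in siNC at 27.6 ± 0.546 CPM per kb (SD, n = 6). FERMT2 (16.7 ± 0.257) and BIN1 (12.6 ± 0.717) followed. ABCA7 (6.42), PTK2B (3.86), SORL1 (3.13), CD2AP (2.08) and INPP5D (1.46) formed the middle of the order. RIN3 followed at 0.243 CPM per kb and EPHA1 at 0.0185. The ranges of neighbours in this order did not overlap over the siNC libraries, except those of PTK2B and SORL1. Ranks per kb were taken among the tested genes with an annotated length, by the mean over all 12 libraries. There PICALM ranked at the 93.7th percentile, INPP5D at the 46.4th and RIN3 at the 15.9th.

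In siZCC the order changed at 2 places. INPP5D, at 2.21 CPM per kb, passed CD2AP, at 1.76, and their ranges did not overlap in either group. The ratio of SORL1 to PTK2B per kb was 0.642 to 0.932 in siNC and higher, at 0.942 to 1.07, in siZCC. It lay above 1 in 0 of 6 siNC and 5 of 6 siZCC libraries. Whether these 2 pairs change order depends on the exon lengths used, while the shift of each ratio between the groups does not. The other neighbours kept their order.

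**Figure D2:**
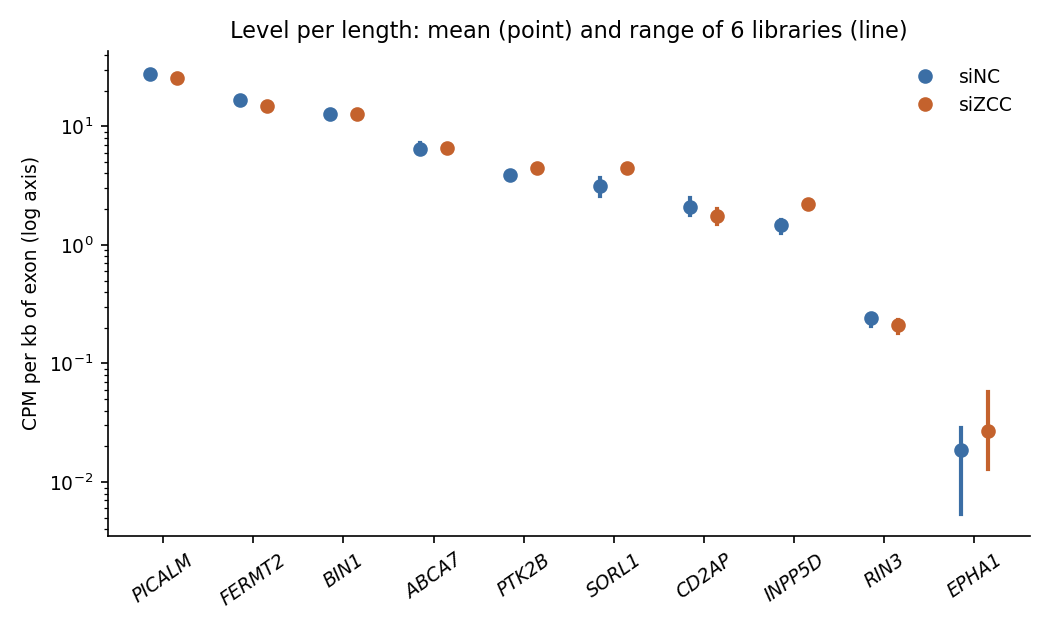
CPM per kilobase of exon (log axis) of the 10 genes, ordered by their mean in siNC; points are means and lines the range of the 6 libraries of siNC (blue) or siZCC (orange). Levels span from 27.6 CPM per kb for PICALM to 0.0185 for EPHA1 in siNC, and INPP5D lies below CD2AP in siNC but above it in siZCC.

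Among the genes of the clathrin pathway, PICALM was slightly lower in siZCC and BIN1 showed no detectable difference. PICALM encodes the clathrin assembly protein that binds phosphoinositides and sets the size of clathrin-coated vesicles. It lies on chromosome 11 from 85957684 to 86069882 on the minus strand (GENCODE v29, GRCh38). It measured 157, 161 and 164 CPM in siNC (lowest, median and highest of 6) and 142, 149 and 159 CPM in siZCC, and 5 of the 6 siZCC libraries lay below every siNC library. Its level fell by 7.22% (log2 fold change -0.11, SE 0.0307; edgeR adjusted p 0.0177). The spread within siZCC was the wider one, with a coefficient of variation of 4.49% against 1.98% in siNC.

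Within siZCC, the 3 libraries with high IL1B held 142 to 146 CPM of PICALM and the 3 with low IL1B 151 to 159 CPM. CD2AP split in the same way, at 10.1 to 11.9 against 12.4 to 13.6 CPM, and BIN1 in the opposite way, at 92.0 to 95.2 against 80.8 to 88.8 CPM. The 3 libraries with high IL1B were also the shallowest of siZCC. These genes are named because they split. FERMT2 split as PICALM did, and the ranges of the remaining members overlapped between the sides. The share of all genes that split in this way was not counted. The part of IL1B or of depth in these levels was not tested. In siNC the 2 sides overlapped for all of these genes, with PICALM at 158 to 164 and 157 to 163 CPM. Fitted within each side, the log2 fold change of PICALM was -0.18 in the high libraries (edgeR adjusted p 0.0214) and -0.05 in the low ones (0.527). The difference between the sides, tested by edgeR as an interaction added after seeing the data, had an unadjusted p of 0.0224 and an adjusted p of 0.935 for PICALM. No gene passed that interaction test (0.0% of 24671, with 1177 at an unadjusted p under 0.05).

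BIN1, the amphiphysin-family protein that senses and bends membranes, lies on chromosome 2 from 127048027 to 127107355 (minus strand). It measured 80.3, 87.6 and 94.6 CPM in siNC and 80.8, 90.4 and 95.2 CPM in siZCC, so the groups covered the same range. Its log2 fold change was 0.03 (95% interval -0.06 to 0.12; edgeR adjusted p 0.695), which allows a change from 4.33% lower to 8.75% higher. BIN1 is transcribed into many splice forms that differ between neurons and other cells; counts per gene sum over them.

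CD2AP and RIN3 were lower on average in siZCC without passing the threshold. CD2AP, a scaffold that links endocytic cargo and the actin cytoskeleton, lies on chromosome 6 from 47477789 to 47627263 (plus strand). It measured 12, 13.5 and 16.7 CPM in siNC and 10.1, 12.2 and 13.6 CPM in siZCC. Replicates 1 and 6 of siNC stood highest, at 16.3 and 16.7 CPM, and 3 of the 6 siZCC libraries lay below every siNC library. The log2 fold change was -0.24 (95% interval -0.43 to -0.05; SE 0.0900; edgeR adjusted p 0.0701), the largest standard error of the 9 genes. The adjusted p ranged from 0.0361 to 0.33 over the alternatives of processing and from 0.0406 to 0.168 when single libraries were left out. It passed the threshold in the DESeq2 Wald test (0.0406) and in edgeR with the IL1B side as a factor (0.0466) or no filter (0.0361). It also passed without siNC replicate 2, 3 or 5 or siZCC replicate 3.

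RIN3 encodes an activator of Rab5, the GTPase of early endosomes, and lies on chromosome 14 from 92513774 to 92688994 (plus strand). It rested on 208 to 263 counts per siNC library and 136 to 189 per siZCC library. These gave 1.80, 2.18 and 2.28 CPM in siNC and 1.58, 1.82 and 2.01 CPM in siZCC, with every siZCC library below the siNC median and 2 of 6 below every siNC library. Its log2 fold change was -0.20 (95% interval -0.37 to -0.04; edgeR adjusted p 0.0766). The call was made without siNC replicate 2 (adjusted p 0.0303) and after a correction for GC content and length (0.0184), and the adjusted p ran up to 0.513 over the alternatives.

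SORL1, the sorting receptor that binds the amyloid precursor protein and steers it with the retromer, rose in siZCC. The gene lies on chromosome 11 from 121452203 to 121633693 (plus strand) and has the longest exon sequence of the 10, 19.45 kb. It measured 49.7, 60.2 and 70.6 CPM in siNC and 83.4, 86.5 and 91.0 CPM in siZCC. All 6 siZCC libraries stood above all 6 siNC libraries, and the lowest siZCC value exceeded the highest siNC value by a margin larger than the whole range of siZCC. The rise was 42.2% (log2 fold change 0.51, SE 0.0616; edgeR adjusted p 2.58e-05). Spread was uneven, with a coefficient of variation of 12.2% in siNC and 3.26% in siZCC. Without siNC replicate 3, the lowest library, the log2 fold change was 0.46, and without siNC replicate 5, the highest, it was 0.56.

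INPP5D showed the largest change of the 10 genes. It encodes SHIP1, an inositol phosphatase that acts on the product of PI3-kinase and restrains signalling from immune receptors, and it lies on chromosome 2 from 233059967 to 233207903 (plus strand). It measured 11, 12.4 and 14.2 CPM in siNC, from 1157 to 1700 counts, and 17.9, 19.3 and 20.2 CPM in siZCC, from 1338 to 2120 counts. The 6 siZCC libraries all lay above the siNC range. The rise was 51.7% (log2 fold change 0.60, SE 0.0558; edgeR adjusted p 2.08e-06), and it was 0.61 and 0.59 on the log2 scale in the libraries with high and low IL1B. This absolute log2 fold change is larger than that of 97.1% of all genes tested.

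Because INPP5D and RIN3 are known from microglia, 19 microglia and macrophage markers were read in the same libraries. Their summed level was 6.27 to 8.21 CPM in siNC and 5.74 to 9.32 CPM in siZCC. Of the 9 that could be tested, 0 passed the edgeR test in either direction, against 22.2% of all genes tested. Their standard errors were wide, from 0.133 to 0.282, so moderate changes in them could go undetected. The largest log2 fold changes were -0.47 for CD53 (SE 0.183) and 0.36 for FCER1G (SE 0.188). Of the 19, 10 had a mean under 0.1 CPM, among them AIF1, CX3CR1, P2RY12, TMEM119 and C1QA, and no marker was at 0 in every library. CSF1R, the receptor that microglia need to survive, had a mean of 1.07 ± 0.340 CPM in siNC against 0.999 ± 0.263 in siZCC (SD, n = 6), and SPI1, a myeloid transcription factor, at 0.375 ± 0.108 and 0.357 ± 0.0801 CPM.

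Of 12 markers of neural progenitors and radial glia, 5 rose and 4 fell. Their summed level was 7863 to 8274 CPM in siNC and 8417 to 8839.7 CPM in siZCC, but without PTPRZ1 the sums overlapped, at 6621 to 6868 and 6576 to 7054 CPM. Sums are weighted to abundant genes: VIM alone held 3549.9 CPM of the mean of 6763 CPM without PTPRZ1 in siNC (log2 fold change 0.02). Rises and falls of less abundant markers weigh little in them. PTPRZ1 (0.39, SE 0.0620), SLC1A3 (0.30, SE 0.0526) and SOX2 (0.20, SE 0.0280) rose on the log2 scale, while FABP7 fell by 0.31 and MKI67, a proliferation marker, by 0.52. Of 9 astrocyte markers 3 rose and 1 fell, and of 13 neuron markers 1 rose and 5 fell, against 22.2% of all genes tested that differed. The astrocyte markers that rose were ALDOC (log2 fold change 0.98, SE 0.0877), NDRG2 (0.47, SE 0.0735) and ALDH1L1 (0.42, SE 0.121), while AQP4 fell (-0.21, SE 0.0575). Among the neuron markers SYT1 rose (0.12, SE 0.0402), and DCX had the largest fall (-0.23, SE 0.0480). The summed neuron markers overlapped between the groups, at 3493 to 3918 CPM in siNC and 3213 to 3624 CPM in siZCC. The part of these shifts in the levels of SORL1, INPP5D and the other members was not tested.

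PTK2B rose by a smaller amount. It encodes the calcium-responsive kinase PYK2, a relative of focal adhesion kinase that acts at synapses and adhesions, and lies on chromosome 8 from 27311482 to 27459391 (plus strand). It measured 28.5, 31.0 and 31.9 CPM in siNC and 33.3, 35.1 and 36.4 CPM in siZCC, with no overlap. The rise was 14.3% (log2 fold change 0.19, SE 0.0346; edgeR adjusted p 7.87e-04). Within the IL1B sides the value was 0.18 in the high libraries (adjusted p 0.0566, from 3 libraries per group) and 0.20 in the low ones (0.0343).

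FERMT2 fell in siZCC. It encodes kindlin-2, which binds the tails of beta integrins and activates them together with talin, and lies on chromosome 14 from 52857268 to 52952435 (minus strand). It measured 139, 142 and 146 CPM in siNC and 119, 126 and 135 CPM in siZCC, and every siZCC library lay below every siNC library. It fell by 11.3% (log2 fold change -0.17, SE 0.0297; edgeR adjusted p 5.40e-04). As for PICALM, the siZCC libraries with high IL1B were the lower ones, at 119 to 125 CPM against 127 to 135 CPM. An antisense transcript, AL139317.5, shares 64 exonic bases with FERMT2 and stood at 1.28 CPM, with a log2 fold change of -0.02 (SE 0.0974).

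EPHA1 was hardly expressed and was left out of the test by the filter on low counts. It lies on chromosome 7 from 143390289 to 143408892 (minus strand). It had 3 to 15 counts per siNC library and 5 to 23 per siZCC library, 59 and 66 in all, or 0.0878 ± 0.0367 and 0.127 ± 0.0765 CPM (SD, n = 6 each). Without the filter its log2 fold change was 0.51 with an edgeR adjusted p of 0.473. With the filter kept, it was tested in most of the fits that left out 1 library, where the adjusted p ran from 0.258 to 0.831. The log2 fold change was lowest, at 0.14, in the fit without siZCC replicate 1, which alone held 23 counts. A difference was not detectable at this depth. Its exons overlap those of ZYX on the opposite strand by 82 bases, and ZYX stood at 176 CPM, so where counting ignored strand some of the EPHA1 counts could belong to ZYX; the strand setting is not given in the sources used here.

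ABCA7, a transporter that moves phospholipids across membranes, lies on chromosome 19 from 1040101 to 1065572 (plus strand). It measured 50.2, 52.5 and 60.9 CPM in siNC and 51.5, 55.2 and 57.7 CPM in siZCC, so that the siZCC values lay inside the siNC range. The log2 fold change was 0.03 (95% interval -0.06 to 0.12; edgeR adjusted p 0.612), which allows a change from 3.74% lower to 9.05% higher.

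Each gene was also compared by the exact permutation test of its log2 CPM over all assignments of libraries to groups (two-sided, 9 genes, unadjusted). INPP5D, SORL1, PTK2B and FERMT2 gave an exact permutation p of 0.00216, the smallest value that 6 libraries against 6 allow. That value follows from the lack of overlap given above and adds nothing to it. Of all genes tested, 9.74% showed no overlap. The exact p was 0.00649 for PICALM, 0.0195 for RIN3, 0.0671 for CD2AP, 0.457 for ABCA7 and 0.543 for BIN1.

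The members were next set beside their closest relatives, 25 genes of which 24 could be tested. In this list 8 rose and 3 fell, or 45.8%, against 22.2% of all genes tested, and the median log2 fold change was 0.07. Most of these relatives have a standard error below the median of all genes tested (0.0707), so that a given fold change is more readily called. Differences between a member and its relative were not tested. SORL1 shares its family with the sortilins, and SORT1, the most abundant of them, fell from 423 ± 27.3 to 349 ± 19.2 CPM (SD, n = 6; log2 fold change -0.28, SE 0.0437; edgeR adjusted p 2.80e-04). SORCS3 rose by 0.20 on the log2 scale (SE 0.0584), and SORCS1 and SORCS2 had values of 0.08 and 0.07 that did not pass. So SORL1 and SORT1 changed in opposite directions.

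For INPP5D and PTK2B the widely expressed relative rose as well, by a smaller value. INPPL1, which encodes SHIP2, rose from 199 ± 10.8 to 223 ± 9.36 CPM (SD, n = 6; log2 fold change 0.17, SE 0.0374). PTK2, which encodes focal adhesion kinase, rose from 149 ± 2.28 to 159 ± 3.46 CPM (0.10, SE 0.0245). The edgeR adjusted p was 0.00422 for INPPL1 and 0.00986 for PTK2. In the RIN family RIN1 rose (0.19, SE 0.0490) and RIN2 fell (-0.16, SE 0.0457).

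The relatives of PICALM, BIN1 and CD2AP did not pass the test. SNAP91, the neuronal counterpart of PICALM, had a log2 fold change of -0.13 (95% interval -0.24 to -0.01; edgeR adjusted p 0.103), AMPH of -0.10 (adjusted p 0.0575), BIN3 of 0.06 and SH3KBP1, the relative of CD2AP, of -0.03. FERMT1 and FERMT3, the other kindlins, were at 1.75 and 1.30 CPM in siNC against 142 CPM for FERMT2 and did not pass. BIN2 was too low to test.

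While ABCA7 did not differ detectably, 3 of the 4 related lipid transporters tested rose. ABCA1, which loads cholesterol onto apolipoproteins, rose from 120 ± 17.1 to 154 ± 8.03 CPM (SD, n = 6; log2 fold change 0.36, SE 0.0742). ABCA2 rose by 0.26 (SE 0.0379) and ABCA3 by 0.15 (SE 0.0329), and ABCA5 had a value of 0.09 that did not pass. Among the EphA receptors, EPHA4, which guides axons and acts at synapses, fell from 52.0 ± 3.71 to 40.6 ± 1.85 CPM (-0.36, SE 0.0452). EPHA5 rose from 15.6 ± 2.27 to 20.1 ± 0.965 CPM (0.36, SE 0.0740). EPHA2, EPHA3, EPHA7 and EPHA8 had values from 0.03 to 0.09 and did not pass. The edgeR adjusted p of the 5 genes called here was at most 0.00376.

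**Figure D3:**
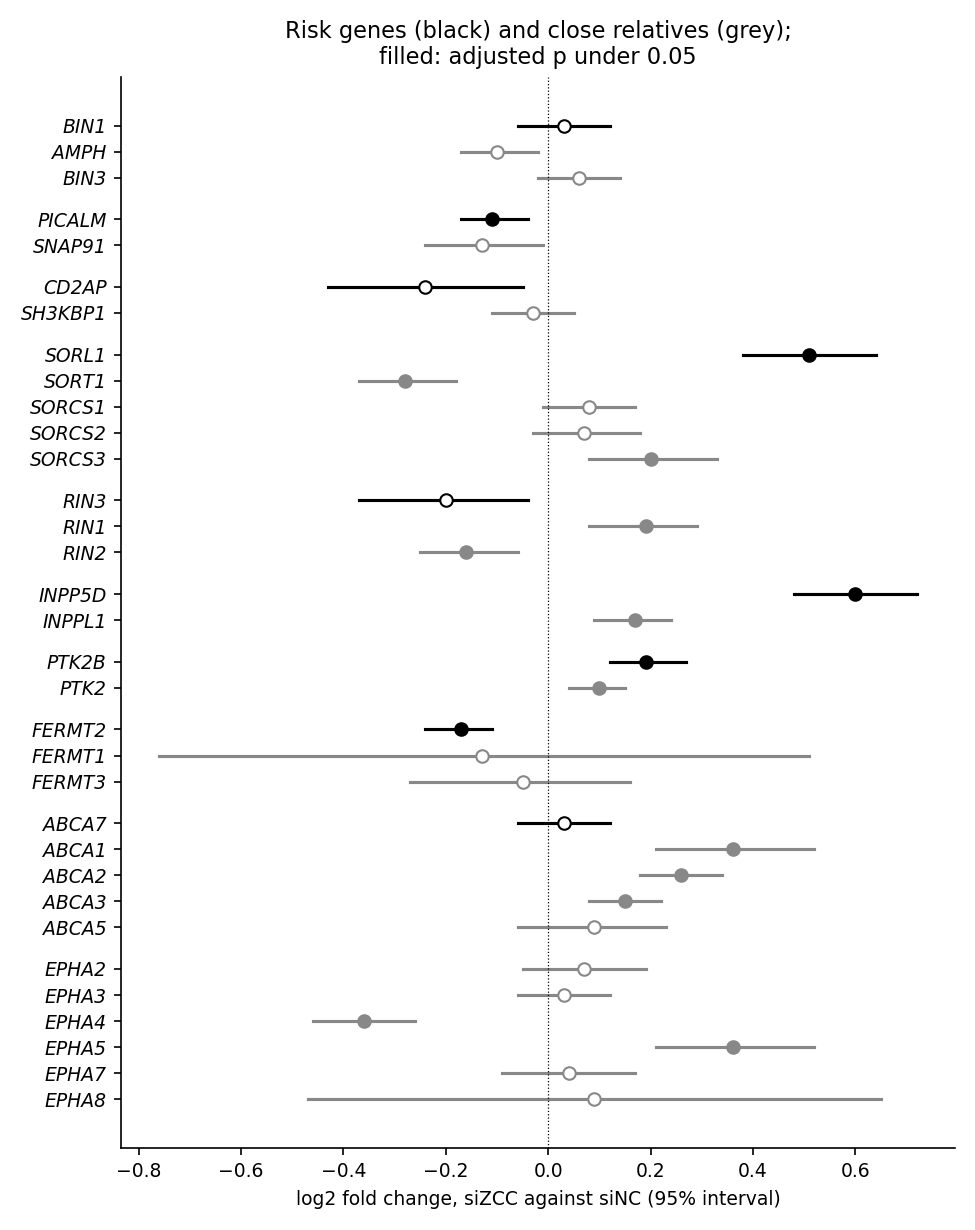
Log2 fold change of siZCC against siNC (x axis) with its 95% interval for 9 risk genes (black) and 24 close relatives (grey), grouped by family; filled points passed an adjusted p under 0.05. INPP5D and SORL1 lie farthest to the right at 0.60 and 0.51, SORT1 lies on the opposite side of 0 from SORL1 at -0.28, and the ABCA relatives ABCA1, ABCA2 and ABCA3 lie to the right of ABCA7.

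The pathways around the members were read from 5 further lists, against the background of 22.2% of all genes differing. That background holds many genes with few counts. In a fit to the 18464 genes with a mean count of at least 50, 5573 were called. Most genes of the lists have a standard error below the median of all genes tested (0.0707), so that a given fold change is more readily called. Of 37 genes of the clathrin coat and vesicle formation, 8 rose and 2 fell, or 27.0%, with a median log2 fold change of 0.03. STON2, an endocytic adaptor of synaptic vesicle proteins, rose by 0.36 (SE 0.0687) and DNM1, the neuronal dynamin that cuts vesicles free, by 0.12 (SE 0.0301). STON1 fell by 0.29 and ITSN1, a scaffold of the coat, by 0.11. The other 27 genes of the list did not pass.

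Of 36 genes of early endosomes, retromer and sorting, 2 rose and 3 fell, or 13.9%, with a median of 0.01. The genes that fell included SNX1, a retromer-associated sorting nexin (-0.18, SE 0.0284; edgeR adjusted p 2.68e-04), and VPS29, a retromer core subunit (-0.14, SE 0.0351). RAB7A, the GTPase of late endosomes, rose by 0.09 (SE 0.0264) and PIKFYVE, a phosphoinositide kinase of endosomes, by 0.21 (SE 0.0668). The largest rise in the list, 0.21, compares with 0.51 for SORL1.

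Integrin and focal adhesion genes, the setting of FERMT2 and PTK2B, had 2 rising and 11 falling members of 29, or 44.8%, and a median of -0.11. ITGB5, an integrin beta subunit, fell from 342 ± 14.3 to 291 ± 12.6 CPM (SD, n = 6; log2 fold change -0.23, SE 0.0345; edgeR adjusted p 1.57e-04). CRK, an adaptor downstream of focal adhesions, fell by 0.19 (adjusted p 9.87e-05). TNS1 rose by 0.18 (SE 0.0390) and ILK, the pseudokinase that binds kindlin-2, by 0.11 (SE 0.0338). The other 16 genes of the list did not pass.

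Of 26 phosphoinositide kinases and phosphatases tested, 5 rose and 3 fell, or 30.8%, with a median of 0.00. PIK3CB, a catalytic subunit of PI3-kinase, rose by 0.25 (SE 0.0377), and INPP4B, a phosphatase that acts after SHIP1 on the same lipids, by 0.45 (SE 0.0741), from 5.03 to 6.90 CPM. PIK3R3, a regulatory subunit, fell by 0.40 (SE 0.0390; edgeR adjusted p 3.18e-06) and INPP5F by 0.08. The rise of INPP5D was 0.60 on the same scale. Of 20 actin regulators that bind CD2AP or act at membranes, 2 rose and 6 fell, or 40.0%, with a median of -0.05. SYNPO, an actin-binding protein of dendritic spines, fell by 0.47 (SE 0.0507) and ANLN, of the cytokinetic ring, by 0.27, while WASL and CBL rose by 0.12 and 0.14.

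The genes whose pattern over the 12 libraries was most like that of each called member were found by the root mean square difference of log2 CPM, each gene centred on its own mean, among 12624 other genes averaging 5 CPM or more. SORL1 was closest to SDK2, a synaptic adhesion gene, and EDNRB, the endothelin receptor of glia, with differences of 0.0570 and 0.0596 against 0.284 for the variation of SORL1 itself. INPP5D was closest to EDNRB (0.0638) and DLGAP2 (0.0728), against 0.318. EDNRB thus appeared beside both, and it rose from 570 to 833 CPM (log2 fold change 0.55, SE 0.0484). PTK2B was closest to IMPDH2 and SPARCL1, FERMT2 to EIF4E and ZNF286A, and PICALM to PPID and TMED2. The likeness includes the difference between the groups.

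Over 23 alternatives of processing, the calls of INPP5D and SORL1 were kept in each. Those of PTK2B, FERMT2 and PICALM were kept in 22, the exceptions being fits to 1 side of the IL1B split with 3 libraries per group: PTK2B in the high libraries and FERMT2 (-0.14, adjusted p 0.0595) and PICALM (-0.05, adjusted p 0.527) in the low ones. The adjusted p of PICALM came closest to the threshold without siZCC replicate 4, at 0.0498.

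**Figure D4:**
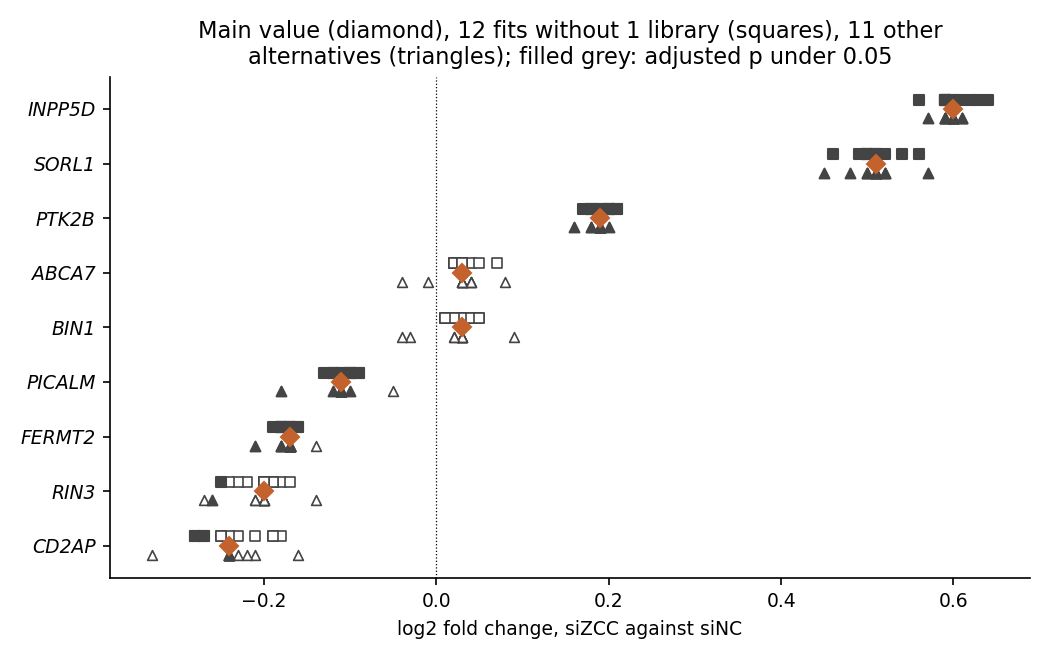
Log2 fold change of siZCC against siNC (x axis) of the 9 tested genes in the main fit (orange diamond), in 12 fits that each left out 1 library (squares) and in 11 other alternatives (triangles); filled grey marks passed an adjusted p under 0.05. INPP5D (0.56 to 0.64) and SORL1 (0.45 to 0.57) stay far from 0, BIN1 and ABCA7 lie on both sides of it, and CD2AP and RIN3 are filled in some fits only.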

How the data were processed

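The deposited values are raw counts of reads by gene symbol, with 1 column for each of 12 libraries; columns were matched to samples by title. Per the submitters' processing notes, bcl2fastq 2.17, STAR 2.7.6a, featureCounts 2.0.1 and GRCh38 were used; annotation and strand setting are not given in the sources used here. Libraries were made with a directional kit, per the labels. Counts were analysed in R 4.3.3 with edgeR 4.0.16: filterByExpr defaults (about 0.0997 CPM), TMM scaling, quasi-likelihood test of siZCC against siNC, and Benjamini-Hochberg adjustment over the 24671 genes that passed; the threshold was 0.05. SE is the log2 fold change divided by the square root of F. The fit was tested on simulated data. CPM values are TMM-scaled; log2 CPM uses a prior count of 2. Depth makes counting error small for all members but EPHA1 and RIN3. Positions, exon lengths and GC content came from GENCODE v29 (92.2% of symbols matched).

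Alternatives were DESeq2 size factors, upper quartile scaling, no filter, a mean count of at least 50, DESeq2 1.42.0, limma voom (3.58.1), the replicate number as a block, the IL1B side as a factor, fits within each side, a correction for GC content and length, and leaving out each library. The interaction was added after seeing the data. Named were the members, their relatives, overlapping genes, the 2 smallest p-values per direction in each list, and the 2 genes most like each called member. Members and lists were chosen with earlier results of these data known. Figures used matplotlib 3.10.9 in Python 3.11.15.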

Additional observations from a re-analysis of the deposited data

How the results depend on the processing

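Under DESeq2 size factors, upper quartile scaling, other filters, DESeq2, limma voom, the IL1B side as a factor and a GC and length correction, 5 or 6 of the genes were called, as against 5 in the main fit; the sixth was CD2AP or RIN3. Leaving out single libraries gave 5 to 7. Fits within 1 side of the IL1B split rest on 3 libraries per group, and gave 4 of the genes and 2043 genes in all in the high libraries, and 3 and 1602 in the low ones, against 5481. BIN1 turned from 0.03 to -0.03 with the correction for GC content and length and to -0.04 in the low libraries, and ABCA7 from 0.03 to -0.04 and -0.01; neither was called in any fit, and the cause was not tested. ZCCHC17 stayed between -2.56 and -2.46.

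Same-numbered libraries of the 2 groups did not deviate together (correlations of -0.08 to 0.02, and 0 of 12 libraries correlated best with their own number). Every same-numbered pair lies on opposite sides of the IL1B split, so these values cannot decide whether the numbers pair the libraries. The labels do not say. In the fit with a replicate block, 4902 genes and 5 of the members were called, and no call of a member changed. Depth limits only EPHA1 and, in part, RIN3.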

Other observations

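Of 8 endothelial markers 5 could be tested, of which 2 fell and 0 rose. TEK, an angiopoietin receptor, fell from 9.46 ± 1.84 to 5.63 ± 0.656 CPM (SD, n = 6; log2 fold change -0.75, SE 0.113; edgeR adjusted p 2.09e-04). CLDN5, a tight junction protein of brain endothelium, fell from 4.35 ± 0.403 to 2.79 ± 0.346 CPM (log2 fold change -0.64, SE 0.0867). PECAM1, a defining endothelial marker, was at 0.268 and 0.270 CPM. Of 8 fibroblast and mesenchymal markers 1 rose and 2 fell. PDGFRB, also a marker of pericytes, rose from 83.5 ± 3.22 to 112 ± 10.2 CPM (0.42, SE 0.0498). DCN and LUM, which encode proteoglycans of the extracellular matrix, fell by 0.21 (SE 0.0706; edgeR adjusted p 0.0457) and 0.16 (SE 0.0470; edgeR adjusted p 0.0239) on the log2 scale.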
